A study of Arabidopsis thaliana with 4 samples.

Results

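Transcripts of 8 Arabidopsis thaliana genes that make NADPH or NAD were followed in leaves of plants without NUDX19, the Nudix enzyme for which the line is named and which hydrolyses NADPH. They were taken as the probe sets that name 1 gene, by symbol or locus, among cICDH, AT1G64190, AT3G02360, AT5G41670, ALDH11A3, QPT, NMNAT and AT1G55090. Each of the 8 genes had 1 such probe set, out of 13513 that name 1 gene and 22810 in all. The study compared wild-type plants of accession Col-0 with KO-nudx19 plants in the same background, and the labels do not name the allele, the number of lines or the number of plants behind each sample. Both genotypes grew on medium with 3% sucrose for 1 week and on soil for 2 weeks, with 16 h of light (100 µmol per square metre per second) at 25 °C and 8 h of darkness at 22 °C, and rosette leaves were taken at 3 weeks. There were 4 samples, 2 per genotype, each hybridised to 1 Affymetrix ATH1 array.

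NADPH is the reductant of biosynthesis and of antioxidant recycling. In leaves it comes from the light reactions and, outside them, from dehydrogenases. Glucose-6-phosphate dehydrogenase and 6-phosphogluconate dehydrogenase make it in the oxidative pentose phosphate pathway, isocitrate dehydrogenases make it while forming 2-oxoglutarate, and non-phosphorylating glyceraldehyde-3-phosphate dehydrogenase (GAPDH) makes it in the cytosol. NAD, the precursor of the NADP pool, is built from aspartate: quinolinate is joined to a phosphoribosyl group by QPT, adenylated by NMNAT and amidated to NAD by NAD synthetase. NAD kinases then phosphorylate NAD to NADP.

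Values are the authors' deposited signal intensities, linear and scaled so that the mean without the highest and lowest 2% of values is 200 on every array. A signal depends on the probes as well as on the transcript, so each gene is compared with itself across arrays and never with another gene. In RNA from whole leaves, fewer cells of a type and less transcript per cell cannot be told apart. In each genotype the samples are labelled rep1 and rep2, with no word on what the number stands for or on whether separate plants were used. The p-values therefore reflect only how far these arrays scatter, and that scatter may be technical.

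Same-numbered arrays resembled each other more than arrays of the same genotype did. The correlation of log2 signals over the 13648 probe sets tested was 0.972 between the rep1 arrays and 0.965 between the rep2 arrays, against 0.927 within wild type and 0.926 within KO-nudx19. Poly(A) controls, bacterial transcripts added to the RNA, had geometric mean signals of 116 (wild type) and 98.2 (KO-nudx19) for rep1 but 19.9 and 21.0 for rep2. Genotype differences are therefore also given within each number. Leaf tissue was checked with photosynthesis genes: 7 of 20 on the list had a probe set that names 1 gene, and their mean signal was 8303 and 10453 in wild type (rep1, rep2) against 10882 and 13665 in KO-nudx19. Of the 7, 6 had a log2 difference above 0, 5 had both KO-nudx19 arrays above both wild-type arrays and 0 passed between the genotypes. Over all tested probe sets, the genotypes did not overlap for 22.3%, counting both directions, and for 11.8% with KO-nudx19 lower. The list's median was 0.40, with PSAE-1 at 0.59, RCA at 0.47 and PSAN at 0.41. Hybridisation controls, which are not plant RNA, were at 620 and 411 for wild type and 1054 and 1140 for KO-nudx19. The highest signal on an array was 15310.5 and 19383.3 for wild type and 20502.2 and 28795.9 for KO-nudx19, the same order as the photosynthesis means. Whether the scale of bright signals had a part in the photosynthesis difference was not tested. The root marker with a probe set, EXPA7, had signals from 1.20 to 6.28, no flower marker had one, and none of the 5 Nudix hydrolases looked for, NUDX19 included, had one, so the knockout could not be checked on its own transcript.

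None of the 8 transcripts separated the genotypes as deposited. On no probe set of the 8 did both KO-nudx19 arrays lie on 1 side of both wild-type arrays, while 22.3% of all tested probe sets did so. With each array centred on its median, AT3G02360 alone did so, its nearest arrays 0.053 apart on the log2 scale and KO-nudx19 lower, beside 22.4% of all tested probe sets. Of the 7 members that were bright enough to be tested, 2 had a log2 difference above 0 (KO-nudx19 minus wild type), 5 had one below 0, and 0 passed limma's test at an adjusted p of 0.05, nor did any at an unadjusted p under 0.05. Over the whole array the test called 0% of probe sets, with 89 at an unadjusted p under 0.05, so the absence of calls is not particular to these genes. Their median log2 difference was −0.06, beside −0.00029 for all tested probe sets, and their median absolute difference was 0.14, beside 0.17.

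**Figure D1:**
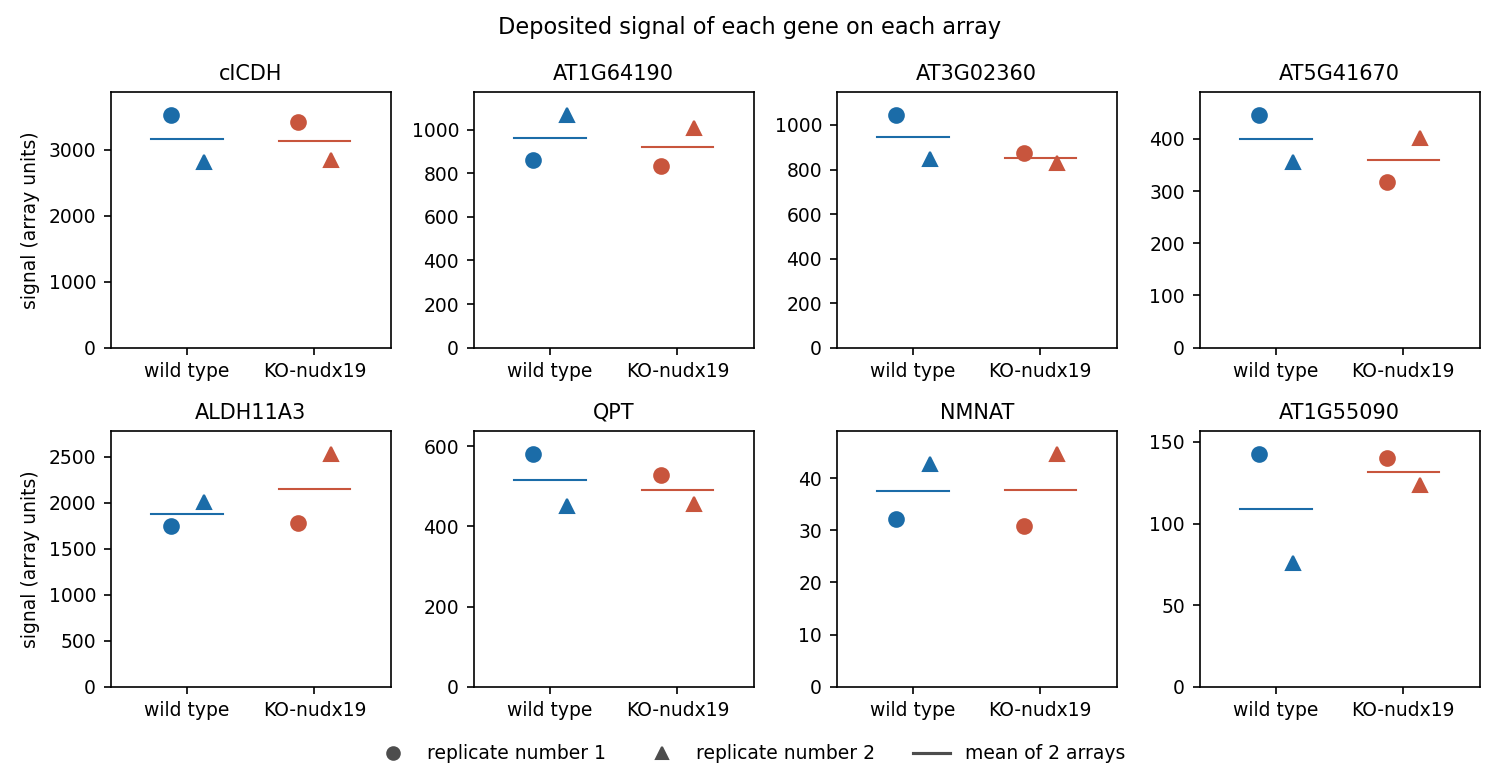
Deposited signal (array units, linear axis from 0) of each of the 8 genes on the 4 arrays; circles are replicate number 1, triangles replicate number 2, blue wild type, red KO-nudx19, and lines the mean of 2 arrays. The genotypes overlap in all 8 panels, and AT1G55090 has 1 low array, wild type replicate 2, at 75.7.

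Among the enzymes that make NADPH, cICDH (AT1G65930, probe set 261920_at) encodes the cytosolic NADP-dependent isocitrate dehydrogenase. Wild-type leaves gave signals of 3524 (rep1) and 2809 (rep2), and KO-nudx19 leaves gave 3426 and 2839 in the same order, which holds for every pair of signals below. Both arrays numbered 1 were higher than both numbered 2, and within each number the genotypes lay close together. Mean signals were 3166 ± 506 for wild type and 3133 ± 415 for KO-nudx19 (SD, n = 2 each, here and below). The log2 difference was −0.01 (SE 0.25, limma adjusted p = 1.00), with a 95% confidence interval from −0.63 to 0.61, and it was −0.04 within the arrays numbered 1 and 0.02 within those numbered 2.

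The 3 genes AT1G64190, AT3G02360 and AT5G41670 encode 6-phosphogluconate dehydrogenases, which release carbon dioxide from 6-phosphogluconate while reducing NADP. They are close relatives, and whether a probe set of one also reads another was not tested. For AT1G64190 (262323_at) the wild-type pair read 861 and 1066 and the KO-nudx19 pair 835 and 1006. Both arrays numbered 2 were the higher ones, and in each number wild type stood slightly above KO-nudx19. Its means were 963 ± 145 and 921 ± 121, and its log2 difference was −0.06 (SE 0.25), −0.04 within number 1 and −0.08 within number 2.

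The wild-type signals of AT3G02360 (256328_at) were 1044 and 846, and its KO-nudx19 signals were 876 and 829. Wild type replicate 1 stood above the 3 other arrays, which lay within 0.08 of each other on the log2 scale. The means were 945 ± 140 and 852 ± 32.7, and the log2 difference was −0.14 (SE 0.24). It was −0.25 within the arrays numbered 1 and −0.03 within those numbered 2.

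For AT5G41670 (249266_at) the wild-type pair read 445 and 356 and the KO-nudx19 pair 317 and 402, with means of 401 ± 63.0 and 359 ± 60.2. The order of the genotypes turned between the numbers: wild type was higher among the arrays numbered 1 and KO-nudx19 among those numbered 2. The log2 difference was −0.49 within number 1 and 0.17 within number 2, and −0.16 (SE 0.27) over both. The within-number values differed by 0.67. Of all tested probe sets, 21.2% had numbers that disagreed by at least as much.

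For each of these 3 genes the genotype difference was smaller than its SE. ALDH11A3 (AT2G24270, 265998_at), the non-phosphorylating GAPDH that oxidises glyceraldehyde-3-phosphate straight to 3-phosphoglycerate, read 1744 and 2004 in the wild-type pair and 1773 and 2525 in the KO-nudx19 pair. KO-nudx19 replicate 2 was the high array. The means were 1874 ± 184 and 2149 ± 532, and the log2 difference was 0.18 (SE 0.27), 0.02 within number 1 and 0.33 within number 2. Without KO-nudx19 replicate 2 it was −0.076, in a fit with no term for the replicate number.

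In NAD synthesis, QPT (AT2G01350, 265738_at), quinolinate phosphoribosyltransferase, read 580 and 452 in the wild-type pair and 528 and 456 in the KO-nudx19 pair. Both arrays numbered 1 were higher than both numbered 2, as for cICDH. The means were 516 ± 90.6 and 492 ± 50.9, and the log2 difference was −0.06 (SE 0.26), −0.14 within number 1 and 0.01 within number 2.

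NMNAT (AT5G55810, 248053_at), the adenylyltransferase that forms the dinucleotide, was dim. The wild-type pair read 32.1 and 42.8 and the KO-nudx19 pair 30.8 and 44.6, with means of 37.4 ± 7.53 and 37.7 ± 9.75. The mean over all arrays, 37.6, fell just under the minimum of 38.2 that a probe set needed to be tested. Its log2 differences were −0.06 within number 1 and 0.06 within number 2. When no probe sets were left out, limma gave a 95% confidence interval from −1.18 to 1.18, that is up to 2.27-fold either way. That fit estimated the scatter otherwise than the main fit, so this interval cannot be set beside those of the other members.

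AT1G55090 (256148_at) encodes NAD synthetase, the last step to NAD. Its wild-type signals were 142 and 75.7, and its KO-nudx19 signals were 140 and 123. Wild type replicate 2 lay 0.71 below the nearest other array on the log2 scale, while the 3 other arrays lay within 0.21 of each other. The means were 109 ± 47.2 and 132 ± 11.8, and the log2 difference was 0.34 (SE 0.37, limma adjusted p = 1.00). It was −0.02 within the arrays numbered 1 and 0.71 within those numbered 2. Without wild type replicate 2 it was −0.12, in a fit with no term for the replicate number. Among all tested probe sets, 17.8% had numbers that disagreed by at least as much (0.73).

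**Figure D2:**
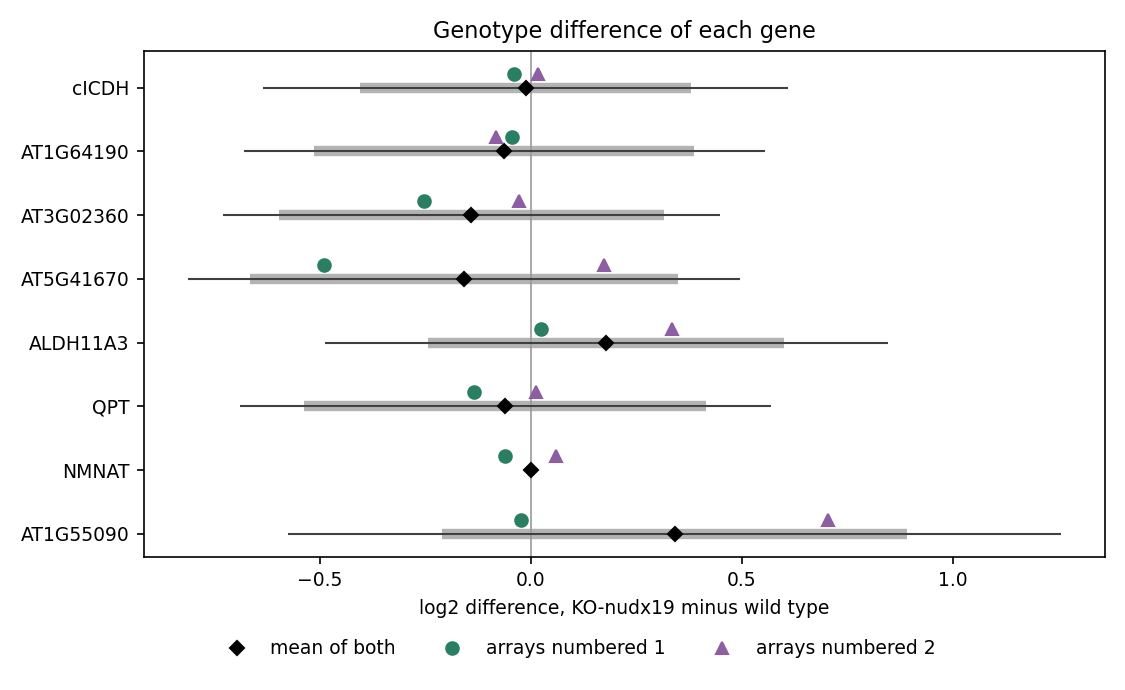
Log2 difference between KO-nudx19 and wild type for each gene; black diamonds are the mean over both numbers, circles the arrays numbered 1, triangles those numbered 2, thin lines limma's 95% confidence interval without the replicate number and thick grey lines the interval with it as a term. Every interval drawn spans 0, and NMNAT, which was not tested, has none.

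The intervals given next come from the fit without the replicate number and rest on the scatter of these arrays. That scatter may be technical, so they need not bound a difference between plants. Over the 7 tested members, the half-width of the 95% confidence interval ran from 0.59 to 0.92 on the log2 scale, against a median of 0.76 for all tested probe sets. The upper end was 1.53-fold for cICDH, 1.47-fold for AT1G64190, 1.36-fold for AT3G02360 and 1.41-fold for AT5G41670. It was 1.80-fold for ALDH11A3, 1.48-fold for QPT and 2.39-fold for AT1G55090. The lower end allowed falls by up to 1.76-fold, for AT5G41670. Smaller changes in either direction were not excluded, and a p above the threshold does not show that the genotypes had equal levels.

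When the number entered the same fit as a second term, 0 of the 7 members passed either, where 0.0147% of all tested probe sets did. Their lowest unadjusted p was then 0.213, for AT1G55090. Of all tested probe sets, 738 had an unadjusted p under 0.05 in limma with that term and 89 without it. Without any difference, a share of 0.05 of the probe sets would be expected under that threshold, so neither count shows genotype differences. The intervals became narrower, for example from −0.41 to 0.38 for cICDH and from −0.21 to 0.89 for AT1G55090. The sign of a difference this small was not stable: for all 7 tested members it turned when 1 of the 4 arrays was left out. Those fits had no term for the replicate number, so leaving out 1 array also unbalanced the numbers between the genotypes. A shift between the numbers then enters the genotype difference. Without wild type replicate 1, cICDH stood at 0.15, AT3G02360 at 0.011, AT5G41670 at 0.0026 and QPT at 0.12. Without wild type replicate 2, AT1G64190 stood at 0.090.

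Within the numbers, 3 of the 7 tested members had a difference of the same sign in both, AT1G64190 and AT3G02360 below 0 and ALDH11A3 above 0. Over all tested probe sets the share with the same sign was 49.1%. The count depended on the scaling: it was 3 of 7 after quantile normalization, where cICDH had 1 sign (−0.10 and −0.042) and AT3G02360 had not (−0.26 and 0.028), and 6 of 7 with each array centred on its median, all but AT5G41670. That centring put the median of all tested probe sets at −0.11 within number 2, from 0.0066, and with it cICDH stood at −0.011 and −0.096, QPT at −0.11 and −0.099 and AT1G55090 at 0.0057 and 0.59. The correlation of the within-number differences over all tested probe sets was −0.04, a description across probe sets that share arrays.

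**Figure D3:**
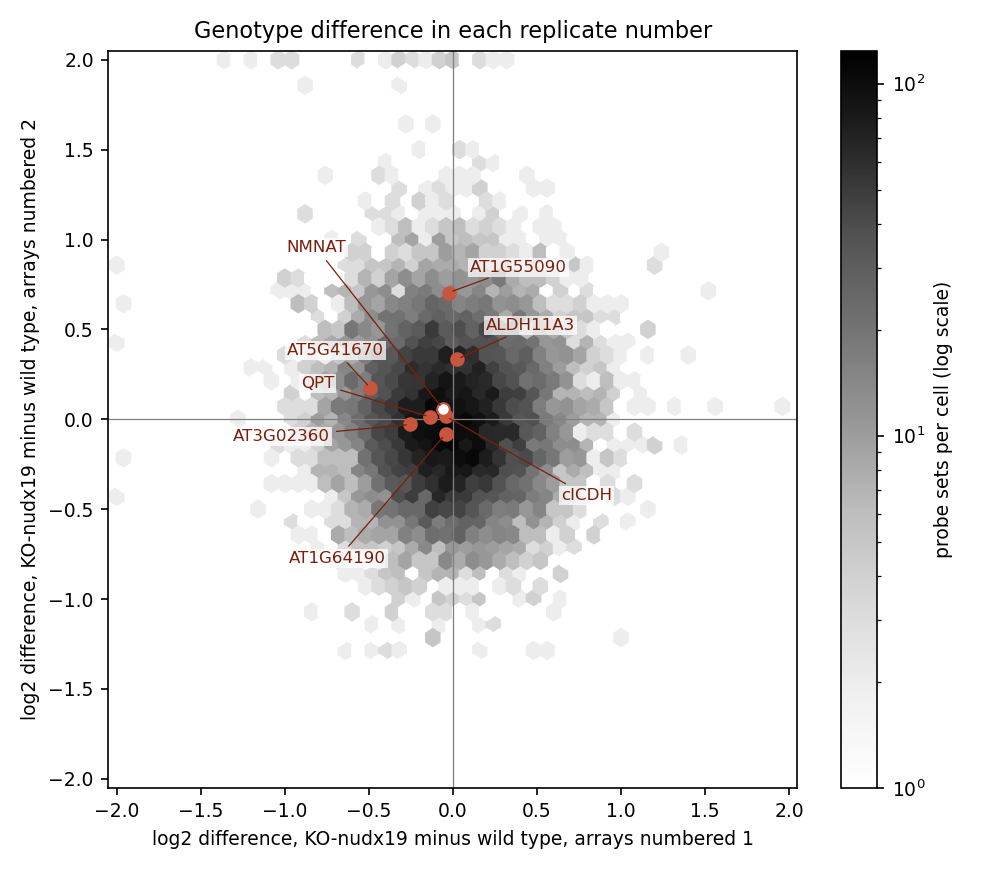
Genotype difference (log2, KO-nudx19 minus wild type) among the arrays numbered 1 on the x axis and among those numbered 2 on the y axis; grey cells count all 13648 tested probe sets on a log scale, 76 of them drawn at the edge of 2, and red points are the 8 genes (NMNAT open). The genes lie inside the cloud, and AT5G41670 and AT1G55090 lie farthest from the line on which both numbers give 1 value.

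The median absolute log2 difference of the tested members was 0.29 between the replicate numbers and 0.14 between the genotypes, and over all tested probe sets it was 0.30 and 0.17. On 6 of the 7 tested members, and on NMNAT, both arrays of 1 number lay above both arrays of the other, as did 54.4% of all tested probe sets. With median centring it was 5 of the 7, without AT3G02360, beside 53.2%. Of the 7, AT1G64190 and ALDH11A3 were higher on both arrays numbered 2 (23.6% of all tested probe sets were), and so was NMNAT, while cICDH, AT3G02360, QPT and AT1G55090 were lower there (30.8%). None passed the test: 0 of 7 members against 11.2% of all tested probe sets were called between the numbers in limma with genotype as a term, and the members' adjusted p ran from 0.207 to 0.986.

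The log2 difference between the numbers (2 minus 1) was −0.30 (SE 0.19) for cICDH, −0.33 in wild type and −0.27 in KO-nudx19. AT1G64190 stood at 0.29 (SE 0.22), with 0.31 and 0.27, and QPT at −0.29 (SE 0.23), with −0.36 and −0.21. The shift had the same sign in both genotypes for these 3 genes, as for ALDH11A3, AT3G02360 and AT1G55090. ALDH11A3 stood at 0.36 (SE 0.20), from 0.20 for wild type and 0.51 for KO-nudx19. AT3G02360 stood at −0.19 (SE 0.22), with −0.30 and −0.08. AT1G55090 had the widest difference, −0.55 (SE 0.26, limma adjusted p = 0.207), from −0.91 for wild type and −0.18 for KO-nudx19. It was −0.20 without wild type replicate 2, and −0.90 without KO-nudx19 replicate 2, in fits without a term for genotype.

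AT5G41670 was the exception in direction, with −0.32 for wild type and 0.34 for KO-nudx19, which cancelled to 0.01 (SE 0.24). Of all tested probe sets, 66.5% had the same sign in both genotypes, as did 6 of the 7 tested members. NMNAT stood at 0.41 in wild type and 0.53 in KO-nudx19. RNA integrity can be read from control probe sets at both ends of a transcript, with 2 pairs each for actin, GAPDH and ubiquitin. On one actin pair the ratio of 3′ to 5′ signal was higher for rep2 in both genotypes, with 2.30 and 4.27 for wild type and 2.92 and 5.17 for KO-nudx19. On the other pair it was higher for rep2 in KO-nudx19 (12.2 and 20.5) and not in wild type (22.0 and 20.6). The GAPDH ratio was higher for rep2 in both genotypes on both pairs, with 1.71 and 1.99 against 1.90 and 2.98, and 1.01 and 1.15 against 0.986 and 1.38. The ubiquitin ratio was higher for rep2 only in KO-nudx19, with 3.73 and 3.20 against 4.27 and 4.35, and 1.53 and 1.44 against 1.48 and 1.95. Markers of other parts of the leaf were few. The phloem sugar transporter gene SWEET11, the 1 of 6 vascular markers with a probe set, gave 2204 and 1404 for wild type and 2147 and 1408 for KO-nudx19, lower for rep2 in both. The guard cell regulator FMA, 1 of 5 such markers, ranged from 77.5 to 85.8. The photosynthesis gene PSAE-1 passed between the numbers, higher for rep2 (log2 difference 0.54, limma adjusted p = 0.028), and SWEET11 passed as lower (−0.63, limma adjusted p = 0.0497). Whether RNA integrity or tissue makeup had a part in the members' differences was not tested.

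**Figure D4:**
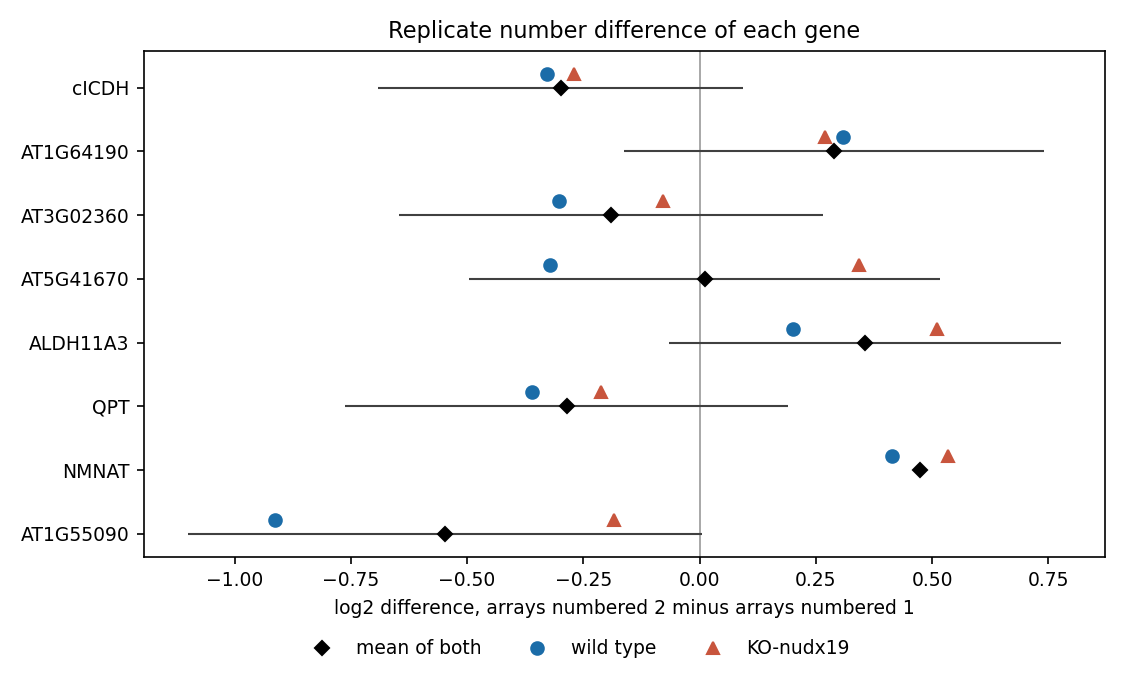
Log2 difference between the arrays numbered 2 and those numbered 1 for each gene; circles are wild type, triangles KO-nudx19, diamonds the mean of both and lines limma's 95% confidence interval with genotype as a term. The genotypes share a sign for 7 genes and not for AT5G41670, and every interval drawn spans 0.

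The patterns of the members over the 4 arrays were compared by the root mean square distance between log2 signals, each gene centred on its own mean. The nearest pair was cICDH and QPT, at 0.034, followed by AT3G02360 and QPT, at 0.065, and cICDH and AT3G02360, at 0.094. Among the dehydrogenases of 6-phosphogluconate, AT3G02360 and AT5G41670 lay 0.15 apart, AT1G64190 and AT5G41670 0.23, and AT1G64190 and AT3G02360 0.25. The farthest pair was AT1G64190 and AT1G55090, at 0.50. These distances rest on 4 arrays and are a description.

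Many other genes lay within 0.1 of a member, fewest for AT1G55090, and how many lay within smaller distances was not counted. Of 7359 other tested probe sets that name 1 gene, 455 lay within 0.1 of cICDH, 362 of AT1G64190, 410 of QPT, 399 of AT3G02360, 215 of ALDH11A3, 169 of AT5G41670 and 65 of AT1G55090. The nearest to cICDH were AT5G01460 (0.013) and AT3G18930 (0.016), and to QPT Cpn60beta4 (0.011) and AT4G00755 (0.013). AT1G64190 was nearest to AT3G57280 (0.0099) and AT1G78810 (0.017), AT3G02360 to AT3G24530 (0.012) and NQR (0.015), and ALDH11A3 to AT1G19370 (0.016) and AT5G15190 (0.019). AT5G41670 was nearest to AT1G71210 (0.0084) and AT2G18520 (0.0097), and AT1G55090 to AT2G39870 and AT2G43850, at 0.029 and 0.030. AT2G39870 read 205 and 104 for wild type against 193 and 170 for KO-nudx19, and AT2G43850 87.5 and 47.1 against 84.6 and 72.7. Both were picked for their likeness to AT1G55090 on these arrays, so their low signal on wild type replicate 2 followed from the choice.

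The rest of the pathway could be followed only in part, since few of its genes have a named probe set. Of 21 genes of NADPH-producing enzymes, 7 had one and were tested, the 5 members included, and 0 passed between the genotypes, with or without the replicate number. Of these, 1 lay above 0 and 6 below, with a median log2 difference of −0.12. As deposited, no member of the 8, but 2 of the 7 on the list, AT5G14590 and the peroxisomal isocitrate dehydrogenase gene ICDH (log2 difference −0.12, named after its values were seen), had both KO-nudx19 arrays below both wild-type arrays, as had 11.8% of all tested probe sets. AT5G14590, another NADP-dependent isocitrate dehydrogenase, read 321 and 305 in the wild-type pair and 269 and 289 in the KO-nudx19 pair. The gap between the nearest arrays was narrow, and its log2 difference was −0.17 (SE 0.24, limma adjusted p = 1.00), −0.25 within number 1 and −0.08 within number 2.

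Of 13 genes of NAD synthesis, salvage and phosphorylation, the 3 members alone had a probe set, and of 3 NAD carriers none had. Of 16 other enzymes of the pentose phosphate pathway, 4 were tested, 0 passed and all 4 lay below 0. Their median was −0.20, beside −0.00029 for all tested probe sets. AT5G44520, a predicted ribose-5-phosphate isomerase, read 423 and 466 in the wild-type pair and 376 and 277 in the KO-nudx19 pair. Its genotypes did not overlap, KO-nudx19 being lower, as for 11.8% of all tested probe sets. Its log2 difference was −0.46 (SE 0.27, limma adjusted p = 1.00), −0.17 within number 1 and −0.75 within number 2. AT1G12230, a transaldolase, had 635 and 454 against 571 and 366, and AT3G01850, a ribulose-phosphate epimerase, 162 and 150 against 183 and 105. Both overlapped between the genotypes, with log2 differences of −0.23 (SE 0.33) and −0.17 (SE 0.34).

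The relatives that use other cofactors and the enzymes that spend NADPH showed small differences as well. GAPC2, a glycolytic GAPDH that reduces NAD, read 6412 and 7850 in the wild-type pair and 7303 and 8302 in the KO-nudx19 pair (log2 difference 0.13, SE 0.25). The NAD-dependent isocitrate dehydrogenase subunits IDH-V and IDH-VI stood at −0.08 and −0.10, and IDH-III had signals between 1.07 and 2.45, below the floor of 8.92. Of 13 genes of enzymes that use NADPH, 4 were tested, 0 passed, and 1 lay above 0 and 3 below. ATMDAR2, a monodehydroascorbate reductase, had 510 and 605 against 425 and 623 (−0.11, SE 0.29). The glutathione reductase gene GR1 had 569 and 431 against 472 and 455 (−0.10, SE 0.26). NTRC, the plastid NADPH-dependent thioredoxin reductase, had 1021 and 735 against 1023 and 807 (0.07, SE 0.28). NTRC, like cICDH and QPT, was lower on both arrays numbered 2. None of these pathway genes passed between the numbers.

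**Figure D5:**
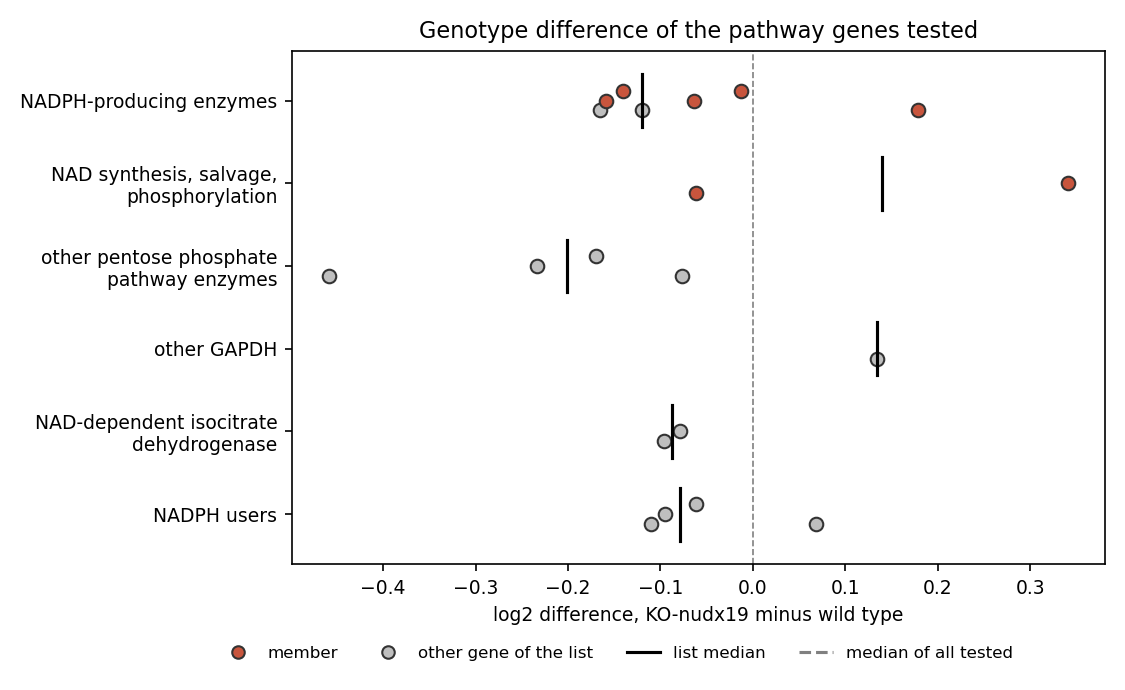
Log2 difference between KO-nudx19 and wild type of each tested gene of the 6 pathway lists, the tissue marker lists not drawn; red points are members, grey points the other genes, black bars the list medians and the dashed line the median of all tested probe sets. The points lie between −0.46 (AT5G44520) and 0.34 (AT1G55090), and none passed limma's test.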

How the data were processed

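Total RNA was labelled with biotin and hybridised to 4 ATH1 arrays, 1 for each sample. The values are intensity signals per probe set deposited by the authors. Per the submitters' processing notes they were made with GCOS, while the background correction and the probe summary are unknown here. The common mean to which the arrays are scaled was read from the values. Scaling to a common mean leaves differences in spread between arrays in place. Groups and replicate numbers came from the sample titles.

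A floor of 8.92, the 20th percentile over all arrays, was put under the signals and log2 was taken; 64 control probe sets, and those with a mean signal below the 40th percentile (38.2), were left out, leaving 13648. Fold changes on this scale understate those of dim transcripts. Tests used limma 3.58.1 in R 4.3.3 (lmFit, eBayes with a trend) with Benjamini-Hochberg adjustment over all of them, and their code was tested on simulated data. An array number of 2 per genotype limits the precision. Genes were named from the platform annotation: of 22810 probe sets 13513 name 1 gene, of which 13436 matched RefSeq (TAIR10.1) by gene identifier, 503 name several and 8730 are unnamed here. No pair of arrays shared more than 1 equal value.

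The members, the gene lists and the rules were chosen with earlier results of these data known. Named genes are all members and, per list, those that passed or else the 3 with the widest difference, and per member the 2 nearest in pattern. Same-numbered arrays deviated together from their genotype means (correlation 0.553), so the number was also used as a term. Alternatives were 2 other scalings, 3 treatments of low signals, other filters and eBayes options, the replicate block and leaving out each array. Figures were drawn with matplotlib 3.10.9.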

Additional observations from a re-analysis of the deposited data

Results flagged for a closer look

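The difference between the arrays numbered 2 and 1 ran in opposite directions in the genotypes for 1 member and 2 genes named from the pathway lists. Each direction rests on 1 pair of arrays, so the opposition was not tested. The genes nearest in pattern to AT5G41670, AT1G71210 and AT2G18520, also ran in opposite directions, which followed from their choice. For AT5G41670 the log2 values were −0.32 (wild type) and 0.34 (KO-nudx19). For AT5G14590 it was −0.072 and 0.10, and for AT5G44520 it was 0.14 and −0.44. Opposite signs were seen for 33.5% of all tested probe sets.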

How the results depend on the processing

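No member passed limma's test, between genotypes or between numbers, under any of the 14 alternatives run for each. Over all tested probe sets, 0 passed between the genotypes, 2 with the replicate block and 0 to 10 when 1 array was left out, the 10 without wild type replicate 1, all of them higher in KO-nudx19. The replicate block changed no other call. Between the numbers 1535 passed, 1012 with the filter at the 60th percentile, where fewer were tested, and 0 with no filter, where 2705 had an unadjusted p under 0.05 (the cause was not tested). Leaving out 1 array gave 521 to 1242, lowest at 521 without KO-nudx19 replicate 1 and 536 without wild type replicate 1.

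No genotype difference of a tested member over both numbers changed sign under the 10 alternatives that kept all arrays. Most of these could not turn it, since the filters, eBayes options, replicate block and other floors left the members' differences unchanged. Quantile normalization, median centring and a pseudocount in place of the floor did move the values. Within a number, the sign turned under another scaling for cICDH, AT3G02360, QPT and NMNAT (number 2; NMNAT from 0.060 to −0.11 after quantile normalization and −0.052 with median centring) and AT1G55090 (number 1), none by more than the SD between replicates. Leaving out 1 array, cICDH ranged from −0.18 to 0.15, AT1G64190 from −0.22 to 0.090, AT3G02360 from −0.29 to 0.011, AT5G41670 from −0.33 to 0.013, ALDH11A3 from −0.076 to 0.43, QPT from −0.24 to 0.12 and AT1G55090 from −0.12 to 0.80. With 1 array of a genotype left, that array is assumed to vary like the other genotype. These genotype fits had no term for the replicate number, so a shift between the numbers enters them. Between the numbers AT5G41670 ranged from −0.24 to 0.26. NMNAT was too dim for the test except with no filter, where its adjusted p was 1.00 between genotypes and 0.528 between numbers.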
